A study of Mus musculus with 5 samples.

Results

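The genes described here are 49 genes of mitosis and chromosome segregation, measured in 5 cultures of mouse CD4 T cells. They were taken from a list of names, not from their values: a probe belonged to a member when its RefSeq accession did, and the brightest of a gene's probes, by its mean over the 5 arrays, was used. All 49 had a probe, out of 21366 genes measured. Of the 49, 44 gave a signal well above background on all 5 arrays, 4 (Cdk1, Ttk, Ncapg and Cenpf) on some of them, and Aurkb on none. By comparison, 50.2% of all genes were well above background on all 5 arrays.

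Mitosis divides the duplicated chromosomes between daughter cells. Cyclin-dependent kinase 1 with its cyclins starts it, condensin and topoisomerase compact and untangle the chromosomes, kinetochores fasten them to the spindle, the spindle assembly checkpoint holds the cell back until every chromosome is attached, and the anaphase-promoting complex then marks securin for destruction, which frees separase to part the sister chromatids. Most of these genes are transcribed late in the cell cycle, and in T cells they rise when the antigen receptor is engaged and fall when the cells return to rest.

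All cells were splenic naive CD4 T cells of C57BL/6 mice at the outset, and there was 1 array for each culture. Th1 cells had spent 4 days with antibodies to CD3 and CD28, an antibody to IL-4, IL-2 and IL-12. The iTreg cells had spent 4 days with antibodies to CD3 and CD28, to IFNg and to IL-4, with IL-2 and TGF-b. Both other routes began with Th1 cells: Th1+TGFb cells went straight into that iTreg medium for another 4 days, 8 in all, and rested cells had 4 days in antibodies to IFN-g and IL-4 plus IL-2, for which the labels list no antibody to CD3 or CD28. Th1reg cells were rested cells moved into iTreg medium for 4 more days, 12 in all. The labels do not say how many mice gave the cells or whether they were pooled. IL-2 was present in all 5 media, and freshly isolated naive cells were not analysed here.

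The cultures had no replicates, so nothing below carries a test, a p-value or a spread between samples, and each comparison is between single arrays. All 5 arrays lay on 1 slide and were scanned together. The SD between repeat spots of a probe on the same array had a median over probes of 0.056 (Th1reg) to 0.073 (rested) log2 units. The largest of these medians gives a typical SD of 0.10 log2 units for a difference between arrays. It is a middle value and no upper limit, so single probes can vary more. Repeat spots share a culture, so they cannot show how far cultures of 1 kind would differ. Signals are given as multiples of the array's own 75th percentile, called scaled signal below, and levels are compared only within a gene. Differences of 2-fold or more were counted. All 10 T cell markers, Cd4 and Cd3e among them, were well above background on every array. In RNA from whole cultures, fewer cells in mitosis and less RNA per cell cannot be told apart.

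The mitotic genes had 1 dominant order over the cultures. Of the 44 members well above background everywhere, 34 ran from Th1reg through Th1, iTreg and Th1+TGFb down to rested cells, an order that 9.15% of the 10716 genes with the same property followed. The signal was highest in Th1reg cells for 39 of the 44, against 31.2% of all genes, and lowest in rested cells for 41, against 38.3%. The log2 range from the lowest to the highest culture had a median of 3.57 over the members, from 1.17 for Smc4 to 4.47 for Spc24. The steps of the order did not hold equally when the arrays were scaled or background-corrected in 5 other ways. Rested cells were lowest in 41 or 42 of the 44 members throughout, and iTreg stood above Th1+TGFb in 41 to 43. Th1reg was highest in 33 to 44, and Th1 stood above iTreg in 28 to 41. The whole order was followed by 34 members in the main setting but by 22 when the 75th percentile was taken over the probes detected on all arrays, against 4.18% of all genes; with spike-in scaling it was 32 members, against 22% of all genes.

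**Figure D1:**
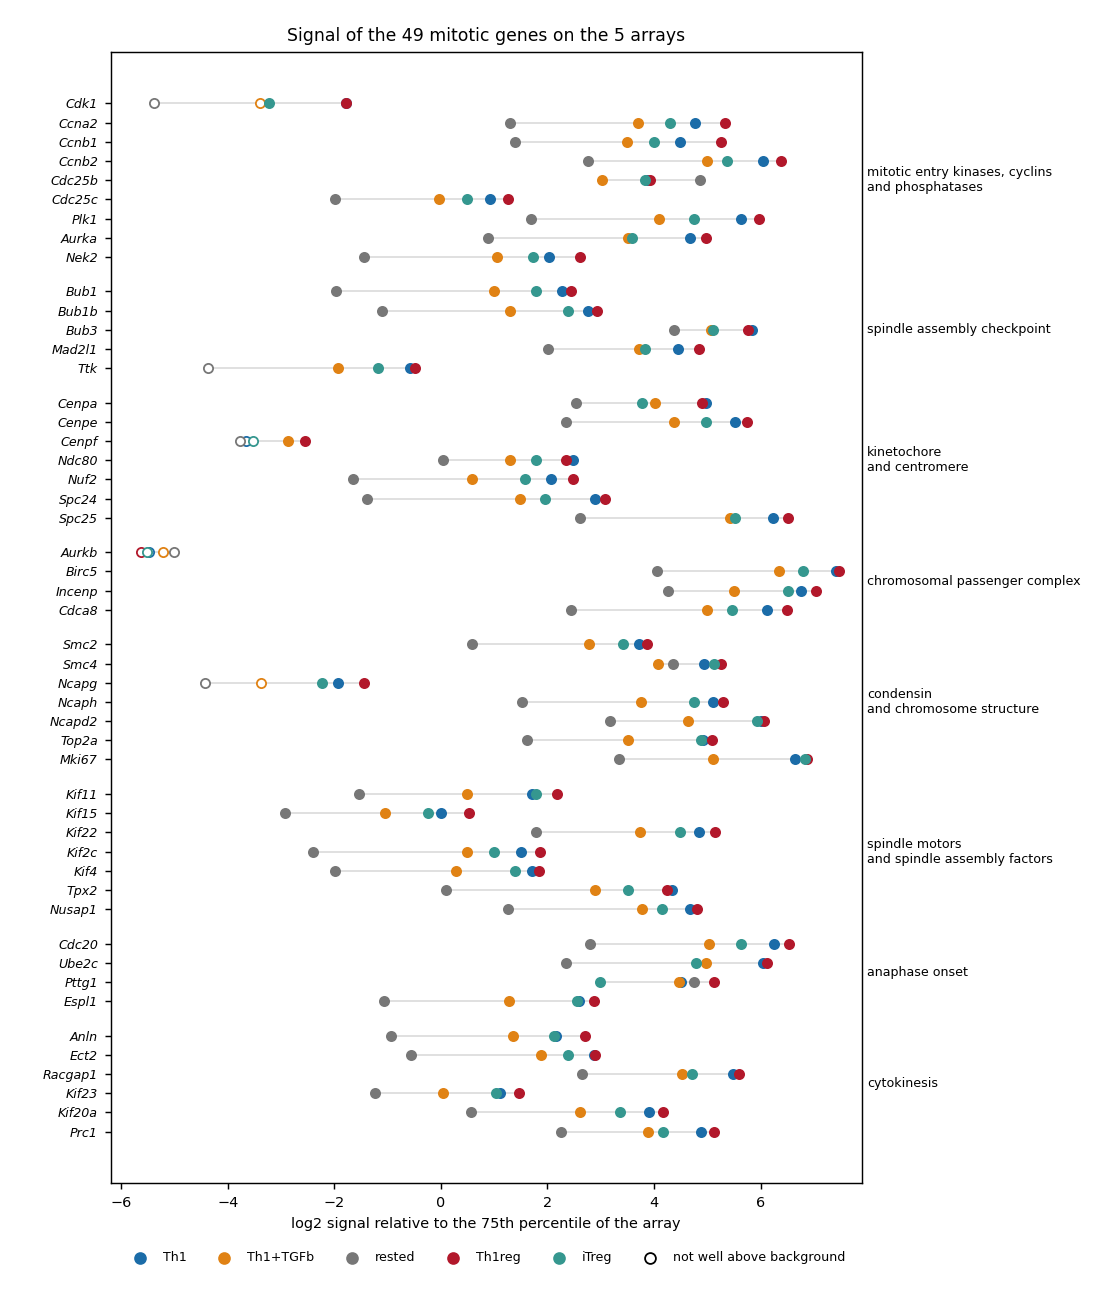
Scaled signal (log2, relative to the array's 75th percentile) of each of the 49 mitotic genes, 1 row a gene, grouped by role, with 1 point for each of the 5 arrays; open points are not well above background and the grey line spans the 5 arrays. Grey points (rested) lie at the left end of nearly every row and red points (Th1reg) at the right. Of the genes well above background on all arrays, only Cdc25b, Pttg1 and Smc4 have another array lowest. Points are to be read along a row, since levels of different probes cannot be compared.

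Genes of the late cell cycle are known for a pair of promoter elements: the cell cycle genes homology region (CHR), TTTGAA, which the MuvB complex binds, as part of the repressor DREAM in resting cells and with B-Myb or FoxM1 in cycling cells, and the CCAAT box, CCAAT, which NF-Y binds. RefSeq's promoters (build GRCm38.p6, 250 bases before to 50 after the start) held 44 entries for 41 of the members. TTTGAA, read on both strands, occurred in 33 of the 44 (75%), against 17.9% of all 32851 promoters of that length and 4 of 30 (13.3%) for the DNA replication list described further on. CCAAT occurred in 34 (77.3%), against 37.4% of all promoters and 63.3% for DNA replication. Both occurred in 29 (65.9%), against 6.95% of all promoters and 10% for DNA replication. The ends of the 2 motifs can share a base. The stretches below are the 100 bases before the start, on the gene's strand and 5′ to 3′. Capitals mark TTTGAA or CCAAT, or their complements TTCAAA and ATTGG. They are shown because they set members that were lowest in rested cells (the first 4) and Cdk1, too dim there to be placed, beside the exceptions Cdc25b and Pttg1 (the last 2).
Cdc20 (chr4:118437544-118437643, minus strand): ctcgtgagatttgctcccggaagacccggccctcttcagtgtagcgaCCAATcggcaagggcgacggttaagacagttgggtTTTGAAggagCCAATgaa
Ube2c (chr2:164769829-164769928, plus strand): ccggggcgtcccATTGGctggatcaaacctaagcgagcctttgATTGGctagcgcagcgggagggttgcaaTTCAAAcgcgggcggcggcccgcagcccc
Top2a (chr11:99024390-99024489, minus strand): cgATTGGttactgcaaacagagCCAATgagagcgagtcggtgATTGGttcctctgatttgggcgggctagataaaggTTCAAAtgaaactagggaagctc
Espl1 (chr15:102296193-102296292, plus strand): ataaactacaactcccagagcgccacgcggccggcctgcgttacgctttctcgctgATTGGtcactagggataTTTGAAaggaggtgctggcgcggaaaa
Cdk1 (chr10:69353113-69353212, minus strand): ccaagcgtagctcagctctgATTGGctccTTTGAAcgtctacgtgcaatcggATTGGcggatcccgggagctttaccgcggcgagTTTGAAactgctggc
Cdc25b (chr2:131186848-131186947, plus strand): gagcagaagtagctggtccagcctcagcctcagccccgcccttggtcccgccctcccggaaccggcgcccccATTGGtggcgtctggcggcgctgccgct
Pttg1 (chr11:43426182-43426281, minus strand): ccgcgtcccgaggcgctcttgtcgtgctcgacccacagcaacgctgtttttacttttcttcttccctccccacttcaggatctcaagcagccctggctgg
The Cdk1 stretch holds TTTGAA at 2 places, and those of Cdc20, Ube2c, Top2a and Espl1 hold TTTGAA or its complement close to the start. In 29 of the 44 member promoters (65.9%) the match lay within 50 bases of the start, against 4.94% of all promoters. The Cdc25b stretch has a CCAAT box only, and the Pttg1 stretch has neither set of letters. A match to these letters is a description and no binding site. Among the members themselves, TTTGAA did not go with a larger difference between rested and Th1 cells: the median log2 difference was -3.24 over the 29 measured members with it (from -3.94 to -1.30) and -3.34 over the 11 without (from -4.23 to 0.995).

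**Figure D2:**
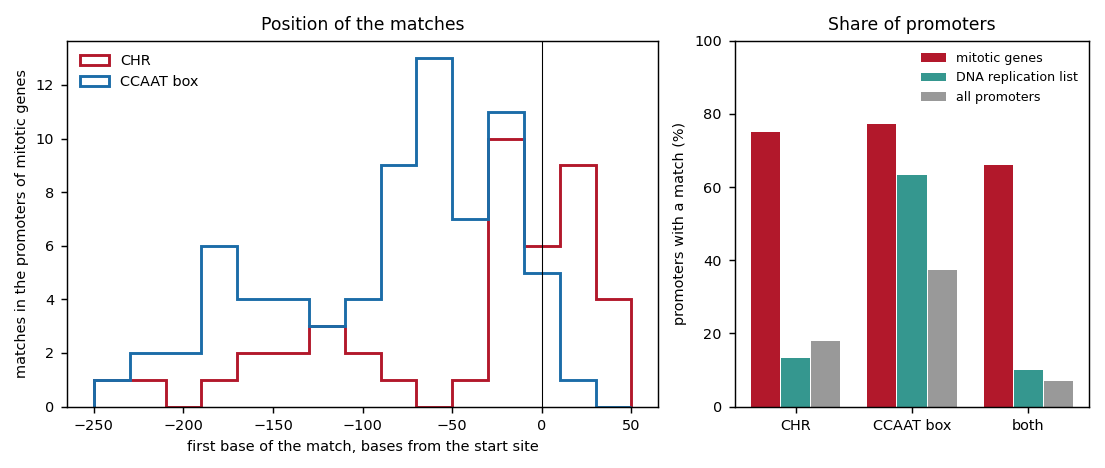
Left, distance in bases from the start site to the first base of each match to the CHR or CCAAT letters in the promoters of the mitotic genes, as counts in bins. Right, the share of promoters (%) with a match to the CHR letters, the CCAAT letters or both for the mitotic genes, the DNA replication list and all promoters. CHR matches gather around the start and CCAAT matches mostly before it. The letters TTTGAA, on either strand, occur in 75% of the mitotic promoters, against 13.3% for DNA replication and 17.9% of all.

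Among the genes of mitotic entry, Plk1, the polo-like kinase that drives centrosome maturation and entry, had a scaled signal of 3.24 in rested, 17.1 in Th1+TGFb, 26.7 in iTreg, 49.6 in Th1 and 62.6 in Th1reg cells. Ccnb1, which encodes cyclin B1, the partner that activates Cdk1, had 2.63 in rested, 11.2 in Th1+TGFb, 15.9 in iTreg, 22.4 in Th1 and 38.4 in Th1reg cells. Aurka, the kinase of the spindle poles, had 1.83 in rested, 11.4 in Th1+TGFb, 11.97 in iTreg, 25.4 in Th1 and 31.4 in Th1reg cells. In all 3 genes the Th1 and Th1reg arrays were high, rested was far below the rest, and iTreg and Th1+TGFb lay between; for Aurka those last 2 arrays were nearly level. Cdc25c, a phosphatase that removes the inhibitory phosphates from Cdk1, followed the same order, with 0.252 in rested, 0.974 in Th1+TGFb, 1.41 in iTreg, 1.90 in Th1 and 2.38 in Th1reg cells. Ccna2 and Ccnb2 (cyclins A2 and B2) and Nek2, a centrosome kinase, also followed it, with 11.1-fold, 9.69-fold and 11.1-fold lower signals in rested than in Th1 cells. For Cdk1 itself the probe was dim: the scaled signal was 0.106 in iTreg, 0.289 in Th1 and 0.290 in Th1reg cells, and not well above background in Th1+TGFb and rested cells. It was therefore at least 2.71-fold lower in rested than in Th1 cells and at least 3.04-fold lower in Th1+TGFb than in Th1 cells.

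Cdc25b went against all of these. This phosphatase acts with Cdc25c at mitotic entry but is also known outside it, and its scaled signal was 29.1 in rested, 8.12 in Th1+TGFb, 14.1 in iTreg, 14.6 in Th1 and 15.2 in Th1reg cells. It was the only one of the 44 members with its highest value in rested cells, 1.99-fold above Th1 cells, just short of the 2-fold threshold, and the lowest value was in Th1+TGFb cells, 3.59-fold below rested cells. With spike-in scaling its direction turned: the log2 difference between rested and Th1 cells was then -0.17, in place of 0.995, and its highest value was in Th1reg cells. Only 1 probe measured it.

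The checkpoint genes differed in how far rested cells lay below Th1 cells. Bub1, the kinase that builds the checkpoint platform on the kinetochore, had a scaled signal of 0.256 in rested, 2.01 in Th1+TGFb, 3.42 in iTreg, 4.81 in Th1 and 5.44 in Th1reg cells, so rested cells stood 18.8-fold below Th1 cells. Bub1b and Ttk, a pseudokinase and a kinase of the same checkpoint, were 14.7-fold and at least 6.24-fold lower there, the latter because Ttk was not well above background in rested cells. Bub3, which carries Bub1 and Bub1b to the kinetochore, differed least of the 5, with 20.6 in rested, 33.4 in Th1+TGFb, 34.6 in iTreg, 56.9 in Th1 and 54.0 in Th1reg cells. Its rested signal was 2.76-fold below Th1. Mad2l1, the checkpoint protein that holds Cdc20, had 4.03 in rested, 13.1 in Th1+TGFb, 14.3 in iTreg, 21.9 in Th1 and 28.8 in Th1reg cells. The 3 Mad2l1 probes disagreed: between rested and Th1 cells the log2 difference was -2.44 for the probe used, -2.40 for another and -0.22 for the remaining probe.

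Kinetochore genes had some of the widest ranges. Spc24, a subunit of the Ndc80 complex that grips the microtubule, had a scaled signal of 0.382 in rested, 2.80 in Th1+TGFb, 3.89 in iTreg, 7.46 in Th1 and 8.45 in Th1reg cells, and its difference between rested and Th1 cells, 19.5-fold, was the largest of all members. Spc25 and Nuf2 of the same complex were 12.3-fold and 13.1-fold lower in rested cells. The fourth subunit, Ndc80, differed less, with 1.03 in rested, 2.46 in Th1+TGFb, 3.46 in iTreg, 5.57 in Th1 and 5.09 in Th1reg cells, and was 5.39-fold lower. Cenpa, the histone H3 variant that marks the centromere, had 5.77 in rested, 16.1 in Th1+TGFb, 13.6 in iTreg, 31.5 in Th1 and 29.8 in Th1reg cells. For Cenpa the iTreg array was the lowest but for rested, below Th1+TGFb. Cenpe, a kinesin that brings chromosomes to the spindle equator, had 5.08 in rested, 20.6 in Th1+TGFb, 31.5 in iTreg, 45.7 in Th1 and 53.8 in Th1reg cells and followed the dominant order. Cenpf, a large kinetochore protein, was well above background only in Th1+TGFb and Th1reg cells, at scaled signals of 0.137 and 0.170.

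The chromosomal passenger complex corrects faulty attachments and later steers cytokinesis. Birc5, which encodes survivin, had a scaled signal of 16.7 in rested, 81.5 in Th1+TGFb, 112 in iTreg, 169.7 in Th1 and 177 in Th1reg cells. Incenp, the scaffold, had 19.2 in rested, 45.5 in Th1+TGFb, 91.4 in iTreg, 108 in Th1 and 132 in Th1reg cells, and Cdca8, which encodes borealin, was 12.9-fold lower in rested than in Th1 cells against 5.62-fold for Incenp. All 3 followed the dominant order. The kinase of the complex, Aurkb, was not well above background on any array, so nothing can be said of it.

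Condensin and chromosome structure genes differed among themselves. Top2a, the topoisomerase that untangles sister chromatids, had a scaled signal of 3.05 in rested, 11.3 in Th1+TGFb, 29.5 in iTreg, 30.1 in Th1 and 33.8 in Th1reg cells. Mki67, the source of the Ki-67 antigen that coats mitotic chromosomes, had 10.1 in rested, 34.6 in Th1+TGFb, 114 in iTreg, 100 in Th1 and 118 in Th1reg cells. In both genes Th1, Th1reg and iTreg cells lay close together, with Th1+TGFb cells below them and rested cells lowest. Smc2, Ncaph and Ncapd2 of condensin were 8.76-fold, 11.9-fold and 7.16-fold lower in rested than in Th1 cells. Smc4, the partner of Smc2 in the same complex, had 20.4 in rested, 16.9 in Th1+TGFb, 35.0 in iTreg, 30.6 in Th1 and 38.1 in Th1reg cells. Its rested signal was only 1.502-fold below Th1 and slightly above Th1+TGFb. Ncapg had a dim probe, with 0.214 in iTreg, 0.263 in Th1 and 0.366 in Th1reg cells, and not well above background in Th1+TGFb and rested cells.

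Spindle genes followed the dominant order but for 2. Kif22, a chromosome-bound kinesin, had a scaled signal of 3.44 in rested, 13.2 in Th1+TGFb, 22.4 in iTreg, 28.7 in Th1 and 35.5 in Th1reg cells. Tpx2, which activates Aurka on the spindle, had 1.07 in rested, 7.39 in Th1+TGFb, 11.3 in iTreg, 20.3 in Th1 and 18.8 in Th1reg cells, with Th1 slightly above Th1reg. Its other, dimmer probe put Th1reg above Th1, with a log2 difference of 0.50 in place of -0.11. Kif11, the kinesin that pushes the spindle poles apart, had 0.346 in rested, 1.41 in Th1+TGFb, 3.45 in iTreg, 3.27 in Th1 and 4.53 in Th1reg cells, with iTreg slightly above Th1. The remaining 4 genes of the group are the kinesins Kif15, Kif2c and Kif4 and the microtubule binder Nusap1. They were between 7.62-fold (Kif15) and 14.9-fold (Kif2c) lower in rested than in Th1 cells.

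At the onset of anaphase, Cdc20, the activator of the anaphase-promoting complex, had a scaled signal of 6.98 in rested, 32.7 in Th1+TGFb, 49.4 in iTreg, 75.7 in Th1 and 93.1 in Th1reg cells. Ube2c, the ubiquitin-conjugating enzyme of that complex, had 5.07 in rested, 31.6 in Th1+TGFb, 27.6 in iTreg, 65.6 in Th1 and 69.2 in Th1reg cells. Espl1, which encodes separase, the protease that cuts cohesin, had 0.477 in rested, 2.42 in Th1+TGFb, 5.85 in iTreg, 6.04 in Th1 and 7.36 in Th1reg cells. Rested cells were lowest for all 3. Espl1 was nearly level between Th1 and iTreg cells, while Ube2c was 2.38-fold lower in iTreg cells. Pttg1, which encodes securin, the inhibitor of separase, stood apart with 26.9 in rested, 22.2 in Th1+TGFb, 7.91 in iTreg, 22.8 in Th1 and 34.7 in Th1reg cells. Its Th1, Th1+TGFb and rested arrays were nearly level, Th1reg was somewhat higher, and iTreg alone was low. The low iTreg value rests on 1 of 2 probes: between iTreg and Th1 cells the log2 difference was -1.52 for the probe used and -0.37 for the other.

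Cytokinesis genes kept to the order throughout. Ect2, which switches on RhoA at the cell's equator, had a scaled signal of 0.675 in rested, 3.66 in Th1+TGFb, 5.24 in iTreg, 7.31 in Th1 and 7.42 in Th1reg cells. Racgap1, which recruits it, had 6.29 in rested, 23.0 in Th1+TGFb, 26.1 in iTreg, 44.7 in Th1 and 48.6 in Th1reg cells. Kif20a, a kinesin of the central spindle, had 1.48 in rested, 6.13 in Th1+TGFb, 10.2 in iTreg, 15.0 in Th1 and 18.0 in Th1reg cells. Rested was the lowest array for each of these, and Th1reg and Th1 were the highest. Anln, Kif23 and Prc1, which build the contractile ring and the central spindle, were 8.48-fold, 5.08-fold and 6.13-fold lower in rested than in Th1 cells.

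Nearly the whole set was lower after rest. Of the 47 members measured in at least 1 of the pair, 44 were at least 2-fold lower in rested than in Th1 cells and none was higher, where 26.7% of all genes were lower and 17.6% higher. The median log2 difference was -3.28 over the members and -0.29 over all genes. Spc24, Tpx2 and Bub1 differed most, by 19.5-fold, 19.0-fold and 18.8-fold. Every role was affected, with medians from -2.64 for the checkpoint to -3.55 for anaphase onset. The 3 members short of the threshold were Smc4, Pttg1 and Cdc25b. The values with the background handled by normexp were smaller for dim genes, and Bub3, Cdk1 and Ncapg dropped below 2-fold in at least 1 of 7 settings, which left 41 called in all of them.

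In Th1reg cells the mitotic signals were far above rested cells and near those of Th1 cells. Against rested cells, 44 of 48 measured members were at least 2-fold higher in Th1reg and none lower, where 27.7% of all genes were higher and 20.0% lower, and the median log2 difference was 3.50, against 0.29 over all genes. Spc24, Bub1 and Plk1 led with 22.1-fold, 21.2-fold and 19.3-fold. Cdc25b was 1.91-fold lower, though higher with spike-ins. Set against the Th1 cells from which the culture began 8 days before, 43 of the 47 members measured on both arrays lay above 0 and 4 (Bub3, Cenpa, Ndc80 and Tpx2) below, by small amounts that turned positive with spike-ins. The median was 0.27, against 0.01 over all genes. Only Cenpf passed the threshold there, at at least 2.14-fold higher, where 6.29% of all genes were higher and 8.57% lower, and it did not with normexp. Ccnb1 came next on the probe used, 1.72-fold higher, but the log2 difference was 0.78 for that probe and 0.04 and 0.08 for the other 2. For Tpx2 the log2 difference was -0.11 for the probe used and 0.50 for its other, dimmer probe. Cdk1, Ect2 and Ncapd2 differed by 1.003-fold, 1.02-fold and 1.03-fold on the probes used, less than the typical repeat-spot SD. For Cdk1, whose probe was dim, the log2 difference was 0.004 there, 0.67 for another dim probe and -0.16 with normexp. The arrays of this paragraph are shared between its comparisons, so they are not independent of each other or of the preceding one.

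**Figure D3:**
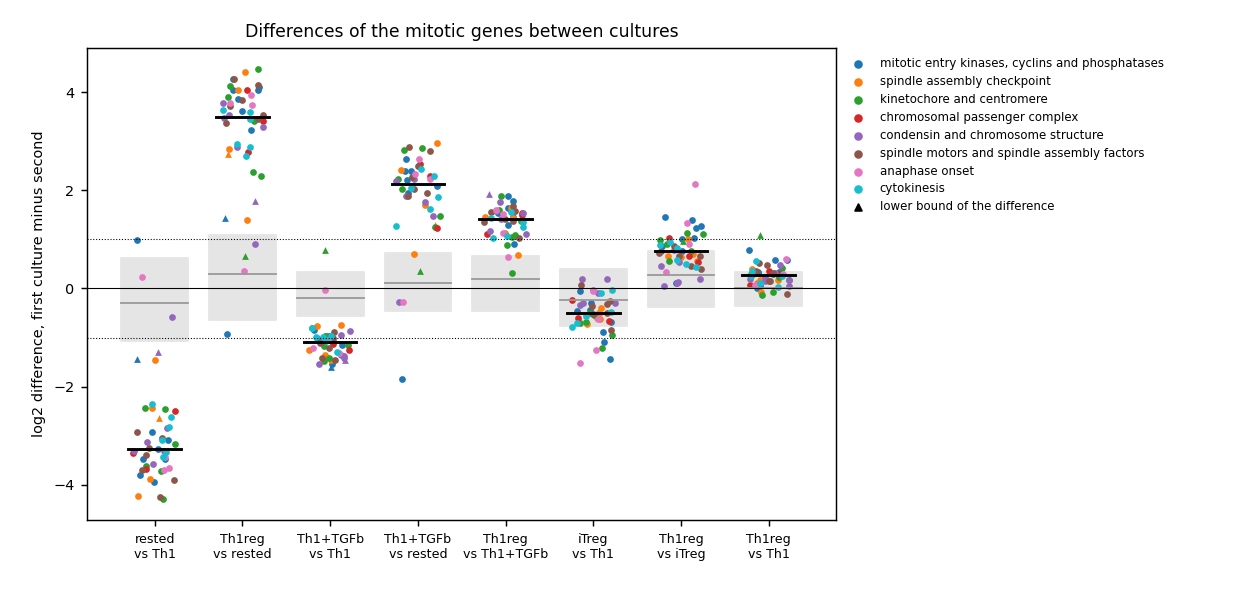
Log2 difference of each mitotic gene in 8 comparisons (first culture minus second), coloured by role; triangles are lower bounds, black bars the members' medians, grey boxes and lines the quartiles and median of all genes, dotted lines the 2-fold threshold. The members sit below the grey box for rested against Th1 (median -3.28) and above it for Th1reg against rested (median 3.50), and largely within it for Th1reg against Th1.

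Th1+TGFb cells, which met the iTreg medium with no rest, had lower mitotic signals than the Th1 cells they came from. At least 2-fold lower were 31 of 48 members and none was higher by that much, where 7.79% of all genes were lower and 11.4% higher. The members' median log2 difference was -1.10, against -0.20 over all genes. Cdk1 (at least 3.04-fold lower), Plk1 (2.91-fold) and Mki67 (2.89-fold) differed most, and Pttg1, Mad2l1 and Bub3 least, by 1.02-fold, 1.67-fold and 1.70-fold. Cenpf alone was higher, by at least 1.72-fold. In the main setting all 45 members measured on both arrays were below 0, but many sat near the threshold, and 14 of the 31 were called in all 7 settings. With the 75th percentile over detected probes 17 members were lower by 2-fold, and with spike-ins 46. These scalings move all genes alike, so the 2 counts cannot be set against the 7.79%. Of the 2-fold differences over all genes, 59.4% were higher in Th1+TGFb cells in the main setting, against 78.5% and 24.3% with these 2 scalings. The same cells were well above rested cells, with 41 of 46 members at least 2-fold higher and 1, Cdc25b, lower, where 17.6% of all genes were higher and 8.82% lower. The median log2 difference was 2.14, against 0.11 over all genes, and Bub1, Kif2c and Spc24 led with 7.83-fold, 7.39-fold and 7.32-fold. Smc4 and Pttg1 were 1.21-fold and 1.21-fold lower, and higher with spike-ins.

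Differences after the iTreg medium ran in opposite directions from the 2 starting cultures. The members were lower than the start where it was Th1 cells and higher where it was rested cells: 43 of the 44 members measured on all 4 arrays were lower in Th1+TGFb than in Th1 cells and higher in Th1reg than in rested cells, as were 51.4% of 10886 genes. These 2 comparisons share no array. Cdc25b was lower in both, but higher in Th1reg than in rested cells with spike-ins. Pttg1, near 0 in the first comparison, was above 0 there with the 75th percentile or the median over detected probes. Between Th1reg and rested cells Pttg1 was at 0.36, but at -0.15 with the 75th percentile over detected probes and -0.28 for its other probe. Th1reg cells also stood above Th1+TGFb cells directly, with 43 of 48 members at least 2-fold higher and none lower, where 12.3% of all genes were higher and 15.1% lower. The median log2 difference was 1.43, against 0.20 over all genes. Ncapg (at least 3.81-fold), Nuf2 (3.71-fold) and Plk1 (3.67-fold) differed most, and Cenpf, Pttg1 and Bub3 least, at 1.24-fold, 1.56-fold and 1.61-fold. All 46 members measured on both arrays lay above 0, and only Cenpf fell below it with normexp. The rest and the 4 extra days of culture cannot be told apart.

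**Figure D4:**
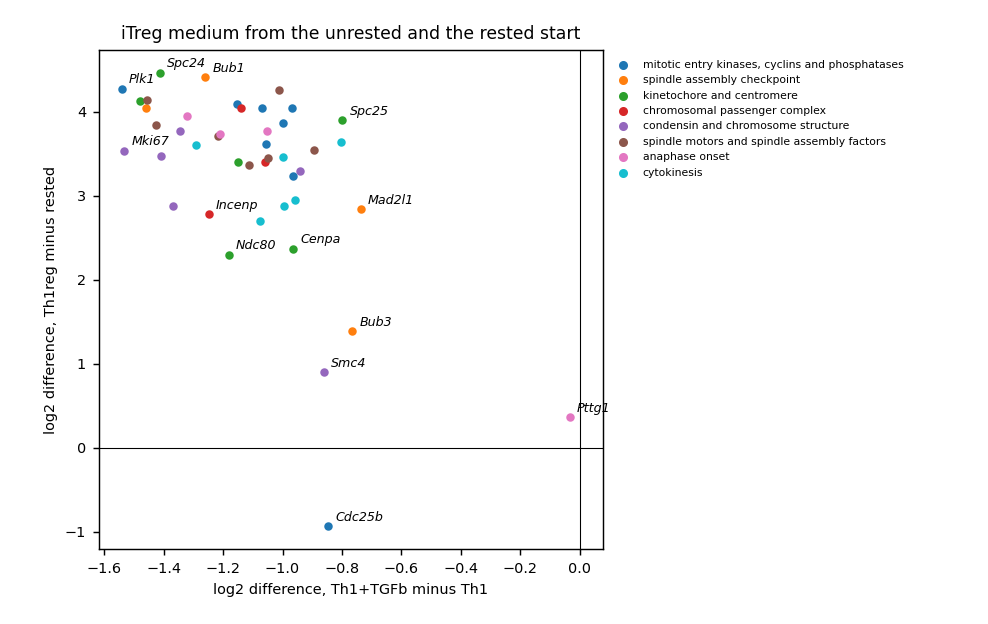
Log2 difference after iTreg medium for each of the 44 mitotic genes measured on all 4 arrays: from unrested Th1 cells on the horizontal axis (Th1+TGFb minus Th1) and from rested cells on the vertical axis (Th1reg minus rested), coloured by role. Of the 44 genes 43 lie in the upper left quadrant. Cdc25b is negative on both axes (with spike-in scaling its vertical value is above 0). Pttg1 lies near 0 on the horizontal axis, and its vertical value is below 0 with the 75th percentile over detected probes.

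The iTreg and Th1 cultures, both 4 days from naive cells with stimulation through CD3 and CD28, differed little. At least 2-fold lower in iTreg cells were 5 of 47 members (Aurka, Cdk1, Cenpa, Pttg1 and Ube2c) and none was higher, where 17.8% of all genes were lower and 10.8% higher, so the count was below the background share. The median log2 difference was -0.49, against -0.23 over all genes, and 44 of the 47 lay below 0 in the main setting. Pttg1 was 2.88-fold lower, Cdk1 2.72-fold, Ube2c 2.38-fold, Cenpa 2.31-fold and Aurka 2.12-fold. None of the 5 stayed past the threshold in all 7 settings. The medians by role were -0.93 for anaphase onset, -0.69 for the kinetochore, -0.60 for the checkpoint and -0.08 for condensin and chromosome structure. The anaphase onset median covers 4 genes and was -0.49 with the other Pttg1 probe, equal to that of all members. Both other Ccnb1 probes gave lower values (-1.28 and -1.18) than the probe used (-0.49), past 2-fold. A change of scaling moves all genes of a comparison by 1 constant and leaves these gaps between roles as they are. Smc4 and Mki67 (0.19 each) and Kif11 (0.08) were the 3 above 0, and Top2a, Anln and Cdc25b differed by 1.02-fold, 1.02-fold and 1.03-fold.

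Against Th1reg cells, which had the same medium last, 12 of 48 members were at least 2-fold higher in Th1reg and none lower, where 15.8% of all genes were higher and 12.2% lower. The median log2 difference was 0.76, against 0.28 over all genes. Pttg1 was 4.38-fold higher, Cdk1 2.73-fold and Aurka 2.62-fold, and 2 of the 12, Aurka and Pttg1, were called in all 7 settings. The other Pttg1 probe gave a log2 difference of 0.85, short of 2-fold, against 2.13 for the probe used. The entry genes held 6 of the 12, with a median of 1.03, while the 7 genes of condensin and chromosome structure held none, with a median of 0.20. The 7 spindle and 6 cytokinesis genes held none either, with medians of 0.66 and 0.70. Anaphase onset held 2, with a median of 1.12, or 0.88 with the other Pttg1 probe. Mki67, Cdc25b and Smc4 differed least, by 1.03-fold, 1.08-fold and 1.09-fold. The iTreg array is common to both comparisons, so a low value on it enters each.

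**Figure D5:**
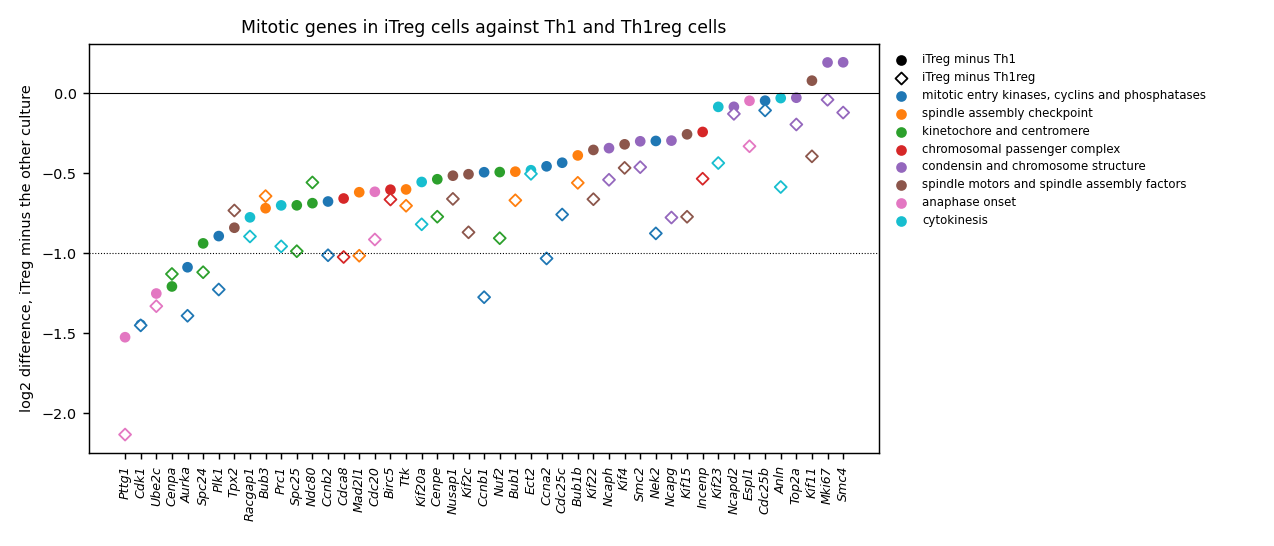
Log2 difference of each mitotic gene in iTreg cells against Th1 cells (filled circles) and against Th1reg cells (open diamonds), coloured by role and sorted by the first; both use the same iTreg array, and the dotted line marks 2-fold. The genes run from Pttg1 (-1.52 against Th1) at the left to Mki67 and Smc4 (0.19 each) at the right, where most of the condensin and chromosome structure genes lie.

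Other genes of the same machinery differed in the same direction. Of all genes, 26.7% were at least 2-fold lower in rested than in Th1 cells and 17.6% higher. Of 31 measured further kinetochore genes, 27 were lower by that much and none higher. Nsl1 and Ska1, of the Mis12 and Ska complexes, differed by 22.6-fold and 18.3-fold, while Hjurp, the chaperone of Cenpa, and Zwint differed by 1.68-fold and 1.39-fold. Among other spindle, centrosome and cytokinesis genes 22 of 24 were lower. All 15 measured other mitotic kinases and regulators were lower, from Wee1, which restrains Cdk1 (2.40-fold), and Bora (2.41-fold) to Melk and Pbk (16.3-fold and 20.8-fold). Foxm1 and Mybl2, the transcription factors named above for the CHR, belong to this list. The scaled log2 signal of Foxm1 was -0.71 in rested, 1.52 in Th1+TGFb, 2.71 in iTreg, 2.92 in Th1 and 3.19 in Th1reg cells, and that of Mybl2 was 2.28, 4.44, 4.78, 5.78 and 5.74 on the same arrays. Rested was again the lowest array for both.

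Cohesin and the anaphase-promoting complex showed a weaker shift. Beside the 26.7% of all genes at least 2-fold lower in rested than in Th1 cells, 17.6% were higher. Of 13 measured genes of cohesin and its regulators, 7 were lower by that much. They included Cdca5 (sororin, 13.8-fold) and Sgo1 (shugoshin, 10.2-fold), whereas Stag2 and Nipbl, a cohesin subunit and the cohesin loader, differed by 1.04-fold and 1.18-fold. Of 13 measured subunits and partners of the anaphase-promoting complex 8 were lower, led by Ube2s (5.92-fold), and 1, the subunit gene Cdc27, was 2.11-fold higher. The list medians were -1.10 and -1.08, against -3.28 for the members and -0.29 for all genes. The 3 genes particular to condensin II were all lower, Ncapg2 by 12.8-fold, Ncaph2 by 3.70-fold and Ncapd3 by 3.09-fold.

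Genes of DNA replication act before mitosis, and most were low in rested cells too. At least 2-fold lower in rested than in Th1 cells were 28 of 30, against 26.7% of all genes. Their median log2 difference was -3.32, and Rfc3 (26.6-fold) and Mcm10 (21.3-fold) led. In Th1reg against rested cells 29 of 30 were higher (median 3.34), against 27.7% of all genes. In Th1+TGFb against Th1 cells 24 of 30 were lower (median -1.19), against 7.79% of all genes. Between iTreg and Th1 cells 3 of 30 were lower and 2 higher, neither share above that of all genes (17.8% and 10.8%), the latter including Tyms (2.12-fold), which encodes thymidylate synthase. Of genes that restrain the cycle, 4 of 15 were higher and 3 lower in rested than in Th1 cells, where 17.6% of all genes were higher and 26.7% lower, so the counts were near the background. The inhibitor gene Cdkn1b was 4.07-fold higher and the antiproliferative gene Btg2 3.20-fold higher, while Cdkn1a, another inhibitor gene, was 10.2-fold lower. Of the same genes, 5 of 15 were lower and 2 higher in Th1reg than in rested cells, where 20.0% of all genes were lower and 27.7% higher. Btg2 and Cdkn1b were 10.4-fold and 4.67-fold lower in Th1reg cells, while Cdkn1a and Cdkn2c were 5.22-fold and 3.455-fold higher.

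Some markers of other cells were highest on the rested array. Of 10 myeloid markers, 4 to 6 were well above background, and their summed scaled signal was 1730 in rested, 1130 in Th1+TGFb, 901 in iTreg, 551 in Th1 and 395 in Th1reg cells. A sum follows its brightest probes, so it is set only against the same sum on other arrays. On every array Itgam, Csf3r, Siglech and Csf1r passed that background limit, whereas Lyz1, Lyz2, S100a8 and S100a9 were well above background on none. The B cell sum ran from 1.13 in Th1reg to 5.73 in rested cells, with 3 or 4 of 8 markers well above background and Cd79a, Pax5 and Blk, among others, on no array. The sum for CD8 T and NK cells ran from 1.63 in iTreg to 7.71 in Th1+TGFb cells, with 3 of 6 markers well above background on each array. Cd8b1 and Eomes were so everywhere, Klra8 on all arrays but iTreg, and Cd8a on the iTreg array alone. The erythroid sum ran from 0.944 in rested to 20.5 in Th1reg cells. Of its markers Tfrc, the transferrin receptor, which dividing cells of other kinds also carry, was well above background on all 5 arrays, Hba-a1 in iTreg cells and no other marker on any. The T cell sum was 1180 in iTreg, 1760 in rested, 1860 in Th1reg, 2160 in Th1 and 2550 in Th1+TGFb cells. The part of other cells in the mitotic differences was not tested.

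Several members had more than 1 probe. For 12 genes, 102 differences could be set beside those of another probe of the gene, and 4 had the opposite sign, 2 of them for Tpx2 and the others for Pttg1 and Mad2l1. The median gap was 0.0783 log2 units, and 5 gaps reached 1, 3 for Mad2l1 and 2 for Pttg1. RefSeq's gene table names a pseudogene for 6 members (Aurkb, Ccnb1, Ccnb2, Kif22, Kif2c and Kif4), and whether their probes share signal with it was not tested.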

How the data were processed

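RNA of 5 cultures was labelled with Cy3 and read on 1-colour Agilent mouse arrays, 1 array a culture. The authors deposited each array's scanner output from Agilent Feature Extraction 10.7.1.1, per the file headers and the submitters' processing notes; its processed signal is a linear intensity, background-subtracted and not scaled between arrays. The deposited value table holds an intensity too: each column was the processed signal divided by 1 constant (99.7% to 99.8% of probes within 0.01 log2 units), with medians of 0.0762 (Th1), 0.103 (Th1+TGFb), 0.123 (rested), 0.0693 (Th1reg) and 0.0925 (iTreg), a 75th percentile of 1.00 and no centring. No source used here says how the constants were chosen.

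Of 62976 spots an array, control spots and the 109 to 142 outlier spots were left out; none was saturated. Spots were averaged to 55681 probes, and each probe's log2 average was taken relative to log2 of its array's 75th percentile (240, 198, 144, 307 and 271 in the order above). Between 45.7% and 48.7% of spots were well above background. Gene names came from RefSeq's table (GRCm38.p6), matched on accession; the array design names mm9. A probe not well above background was set to the array's lowest well-above signal if its own was lower, so its fold is a lower bound ("at least"); genes dim on both arrays of a comparison were left out. Calls are differences of 2-fold or more, with no test.

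Alternatives were other scalings (75th percentile or median of probes detected on all arrays, 8 spike-in probes), normexp with offset 50 (limma 3.58.1, R 4.3.3), the deposited table, no floor, the median over a gene's probes and a 3-fold threshold. The planned mean-signal column was not found in the files, so normexp used the spot median. Scripts (Python 3.11.15) were tested on simulated data. Values on all arrays are given for members fixed by role, and each comparison names its 3 largest, 3 smallest and any opposite differences; of each pathway list, genes among its 2 largest differences each way are named, and some listed genes are not reported by name here. Spc24, Ube2c, Foxm1 and Mybl2 levels, and the other members' folds, were added after their values were seen. The members and lists were chosen with earlier results of these data known.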

Additional observations from a re-analysis of the deposited data

Results flagged for a closer look

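The members' median log2 difference was -1.10 for Th1+TGFb against Th1 cells and 3.50 for Th1reg against rested cells. The 2 contrasts were singled out because each sets a culture after 4 days of iTreg medium against its own starting culture and nearly all members lie on opposite sides of 0 in the 2: of the 44 measured on all 4 arrays, 43 were lower in the first and higher in the second. Each culture is 1 array, so the difference between the contrasts was not tested. The starting cultures differ in level: the rested array was the lowest of the 5 for 41 of the 44. Cdc25b, the exception, was lower after the medium in both, though higher in Th1reg than in rested cells with spike-in scaling (0.54). Pttg1, counted among the 43, was lower in Th1reg than in rested cells with the 75th percentile over detected probes (-0.15).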

How the results depend on the processing

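No paired analysis was possible because each culture had 1 array, so no replicate could be left out either. No called difference of a member changed sign under the 7 other settings. Some uncalled ones did. With spike-ins Cdc25b and Pttg1 turned for rested against Th1 (to -0.17 and -0.92) and Cdc25b for Th1reg against rested (to 0.54). Pttg1 and Smc4 turned with spike-ins for Th1+TGFb against rested (to 0.52 each). Under at least 1 setting 14 members turned for iTreg against Th1, none of them over 0.354 in size at first. So did 6 for Th1reg against iTreg (Cdc25b, Espl1, Mki67, Ncapd2, Smc4 and Top2a), none over 0.331. For Th1reg against Th1 it was 5 (Bub3, Cdk1, Cenpa, Ndc80 and Tpx2), none over 0.129. Pttg1 also turned for Th1reg against rested and for Th1+TGFb against Th1, and Cenpf for Th1reg against Th1+TGFb. The median log2 difference of the members ranged from -4.44 to -2.75 for rested against Th1, from 2.99 to 4.97 for Th1reg against rested, from -1.46 to -0.854 for Th1+TGFb against Th1, from 1.77 to 2.93 for Th1+TGFb against rested, from 1.20 to 2.10 for Th1reg against Th1+TGFb, from -0.528 to -0.116 for iTreg against Th1, from 0.401 to 0.817 for Th1reg against iTreg and from 0.264 to 0.581 for Th1reg against Th1.

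Counts of members called 2-fold apart moved as follows. With the 75th percentile over detected probes, 1 was higher in rested than in Th1 and 1 lower in Th1reg than in rested (Cdc25b in both, also 1 and 1 with their median), 1 was higher (Cenpf) and 17 lower in Th1+TGFb than in Th1, 3 were higher in Th1reg than in iTreg, and 2 were lower in iTreg than in Th1. With the median over detected probes, 20 were lower in Th1+TGFb than in Th1 and 6 higher in Th1reg than in iTreg. With spike-ins, 46 were lower in Th1+TGFb than in Th1, 2 were higher in Th1reg than in Th1, and 2 were lower in iTreg than in Th1. With normexp, 0 were higher in Th1reg than in Th1. At 3-fold, 1 was lower in Th1+TGFb than in Th1, 11 were higher in Th1reg than in Th1+TGFb, 0 were lower in iTreg than in Th1, 1 was higher in Th1reg than in iTreg and 0 in Th1reg than in Th1.

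The scalings shift every gene of a comparison by 1 constant, by which these counts move. For rested against Th1 the shift was 0.53 log2 units with the 75th percentile over detected probes, 0.25 with their median and -1.16 with spike-ins; for Th1reg against rested -0.51, -0.26 and 1.47; for Th1+TGFb against Th1 0.24, 0.16 and -0.37; for Th1+TGFb against rested -0.28, -0.09 and 0.80; for Th1reg against Th1+TGFb -0.23, -0.17 and 0.68; for iTreg against Th1 0.38, 0.13 and 0.29; for Th1reg against iTreg -0.36, -0.14 and 0.02; for Th1reg against Th1 0.01, -0.01 and 0.31. Over all genes, the share of 2-fold differences that were higher in rested than in Th1 was 39.7% and ran from 6.49% (spike-ins) to 65.3% (75th percentile over detected probes); under the same 2 settings it went from 58.0% to 92.9% and 36.6% for Th1reg against rested, from 59.4% to 24.3% and 78.5% for Th1+TGFb against Th1, from 66.6% to 95.3% and 44.7% for Th1+TGFb against rested, from 44.8% to 84.3% and 27.6% for Th1reg against Th1+TGFb, from 37.9% to 58.4% and 64.5% for iTreg against Th1, from 56.5% to 57.7% and 31.1% for Th1reg against iTreg and from 42.3% to 65.6% and 43.6% for Th1reg against Th1. The other Pttg1 probe, tried after seeing the data, moved the anaphase onset median from -0.93 to -0.49 for iTreg against Th1 and from 1.12 to 0.88 for Th1reg against iTreg. Signal near background limits Cdk1, Ttk, Ncapg and Cenpf, and Aurkb could not be measured.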
